A study of Mus musculus with 8 samples.

Results

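The 10 genes of the RBFOX, MBNL, PTBP and Musashi families of splicing regulators examined here for binding by RBM45 were Rbfox1, Rbfox2, Mbnl1, Mbnl2, Mbnl3, Ptbp1, Ptbp2, Ptbp3, Msi1 and Msi2. They were chosen as gene families by name, with earlier results of these data known. A binding peak was counted for a gene when its midpoint lay in the gene body on the same strand, in GENCODE M21 on the mm10 build. The 10 genes are among 15995 genes with a peak in both WT CLIP replicates. They held 673 of 387749 distinct peaks in replicate 1, 573 of 344700 in replicate 2 and 15 of 16399 pairs in the authors' list of shared peaks.

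The series profiled RNA bound by tagged mouse RBM45 in mHippoE-2 cells, a transformed line of mouse hippocampal neurons of strain Crl:CFW(SW)-024. All 8 libraries came from cells carrying a lentiviral FLAG-HA-tagged mouse Rbm45, so that the protein studied was an added, tagged copy. The 4 groups of 2 libraries were Mettl3 KO CLIP, Mettl3 KO size-matched input, WT CLIP and WT size-matched input. Mettl3 encodes the catalytic subunit of the m6A methyltransferase. CLIP crosslinks protein to RNA, here followed by an HA antibody (C29F4). Only the labels of the KO libraries state the ultraviolet crosslinking. The peak lists used here cover WT CLIP alone, and the KO and input libraries were not analysed here, so no comparison between genotypes or of CLIP with input was made. Nothing in the labels says that replicates came from separate cultures, and the depth of each library is unknown.

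RBFOX, MBNL and PTBP proteins bind short RNA elements in and beside alternative exons and promote or repress their inclusion, largely according to where they bind. RBFOX proteins recognise UGCAUG elements, PTBP proteins pyrimidine-rich tracts and Musashi proteins UAG-containing sites. Neuronal differentiation is marked by a switch from PTBP1 to PTBP2 and by rising RBFOX and MBNL activity. Several of these proteins also act on the splicing of their own and of each other's transcripts, through cassette exons that can be included or skipped.

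The sequences of conserved cassette exons are shown first, because the distances of peaks to them are given below. They were read from GENCODE M21 transcripts (GRCm38, mm10). Capitals mark bases that are the same in every exon of a set. A 34-nt exon is present in all 3 PTBP genes, with 19 positions identical in all 3 genes. PTBP1 is known to repress inclusion of this exon of Ptbp2, and skipping it shifts the reading frame.
Ptbp1 (chr10:79862014-79862047, plus strand): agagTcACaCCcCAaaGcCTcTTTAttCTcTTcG
Ptbp2 (chr3:119724612-119724645, minus strand): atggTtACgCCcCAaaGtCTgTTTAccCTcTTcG
Ptbp3 (chr4:59485339-59485372, minus strand): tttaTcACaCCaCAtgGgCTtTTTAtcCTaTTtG
The Ptbp1 exon matched that of Ptbp2 at 26 of 34 bases and that of Ptbp3 at 22 of 34 bases. In the transcripts used, the exon of Ptbp3 is not a cassette exon, whereas those of Ptbp1 and Ptbp2 are.

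Mbnl1 and Mbnl2 share a 54-nt cassette exon, identical at 46 of 54 bases (85.2%), which in MBNL1 governs nuclear localisation.
Mbnl1 (chr3:60614683-60614736, plus strand): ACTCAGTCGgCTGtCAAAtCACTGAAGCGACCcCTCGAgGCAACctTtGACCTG
Mbnl2 (chr14:120395712-120395765, plus strand): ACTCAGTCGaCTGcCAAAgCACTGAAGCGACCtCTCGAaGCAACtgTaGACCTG
Rbfox1 and Rbfox2 share a 40-nt cassette exon, identical at 34 of 40 bases, and a 43-nt one, identical at 27 of 43 bases. The 40-nt exon is known from brain and the 43-nt exon from muscle.
Rbfox1, 40 nt (chr16:7363865-7363904, plus strand): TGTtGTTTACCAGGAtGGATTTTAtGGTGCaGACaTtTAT
Rbfox2, 40 nt (chr15:77094451-77094490, minus strand): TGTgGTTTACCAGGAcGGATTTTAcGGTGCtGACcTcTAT
Rbfox1, 43 nt (chr16:7369801-7369843, plus strand): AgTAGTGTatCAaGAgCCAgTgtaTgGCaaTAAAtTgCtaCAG
Rbfox2, 43 nt (chr15:77091812-77091854, minus strand): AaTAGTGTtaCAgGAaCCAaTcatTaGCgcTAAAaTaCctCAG

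Each peak carries the authors' fold over background and −log10 p from the peak caller, which describe the peak within its own list. Folds of a shared peak are set side by side below as each list gives them, and their difference between replicates was not tested. The commonest pair of values, a fold of 1.95 with a −log10 p of 3.53 in replicate 1 and a fold of 1.92 with a −log10 p of 3.10 in replicate 2, accounted for 16.6% and 27.2% of all distinct peaks. The median fold over all distinct peaks was 1.93 in replicate 1 and 1.92 in replicate 2. The median peak width over all peaks was 30 bp in both replicates. No source used here says how strand was assigned. In the bodies of the 10 genes, every peak on the opposite strand was an interval listed on both strands. That applied to 7 of 7 and 12 of 12 peaks of Ptbp1, 3 and 4 of Msi2, 1 and 1 of Rbfox2, and 0 of the others. The strand of every Ptbp1 peak is therefore open to doubt. Plppr3, a gene on the opposite strand, overlaps the 3′ part of Ptbp1, including its 34-nt exon, and peaks there cannot be assigned to either RNA.

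The 10 genes differed widely in how densely they were covered. The genes they are set beside are the 15995 of 55450 annotated genes with a peak in both replicates. Ptbp1 and Msi2 lay above the median of these in both replicates, Ptbp2 and Ptbp3 in replicate 1 alone and Msi1 in replicate 2 alone. The median was 0.312 peaks per kb in replicate 1 and 0.212 in replicate 2 over the 10 genes, against 0.466 and 0.375 over all 15995 genes. The 10 genes were also longer, with a median length of 123 kb against 27.9 kb. Across the 15995 genes, peaks per kb were lower in longer genes (Spearman's rho of −0.35). These genes share their libraries and are not independent replicates. The requirement of a peak in both replicates sets a density floor that rises as genes get shorter, so part of this trend is fixed in advance. Each of the 10 genes was also set beside those of the 15995 in its own length class, by its mean density over the replicates. Msi2 was denser than 95.6% of 1033 genes over 200 kb, and 45 of those genes were denser. Ptbp1 was denser than 83.0% of 10884 genes under 50 kb. Msi1 stood at 55.1% in that class, with a replicate 2 density of 0.958 peaks per kb and a replicate 1 density of 0.192. Rbfox2 stood at 52.6%, Ptbp3 at 50.5%, Ptbp2 at 49.2%, Mbnl2 at 45.6%, Mbnl3 at 38.2% and Mbnl1 at 35.5% in theirs. Rbfox1 was the sparsest, denser than 24.5% of genes over 200 kb.

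**Figure D1:**
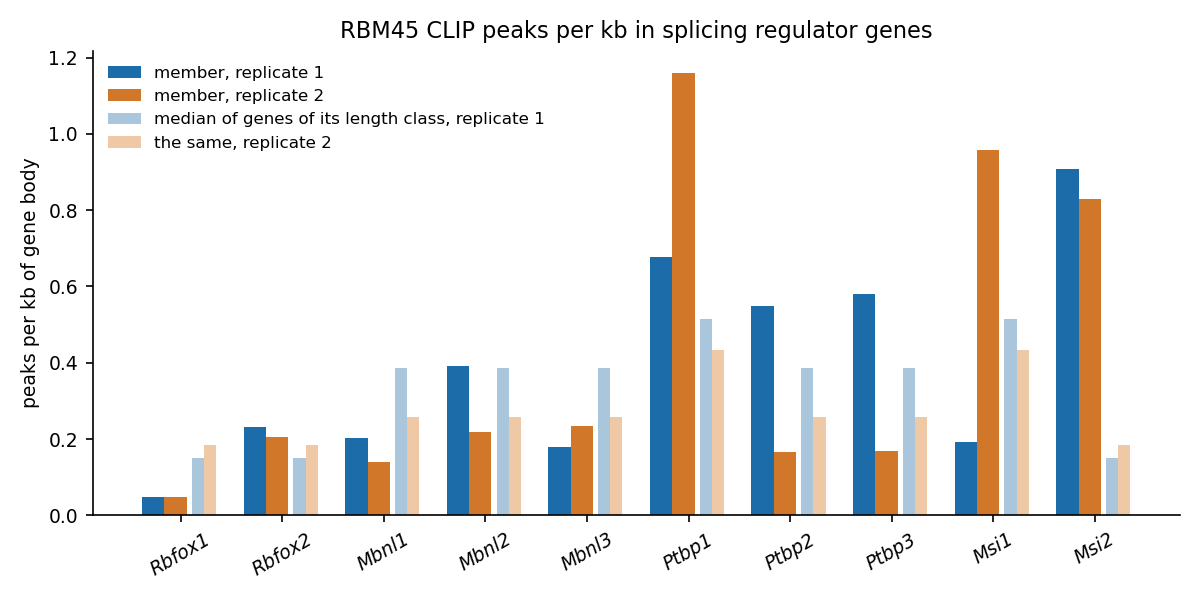
Peaks per kb of gene body (vertical axis) for each of the 10 genes in WT CLIP replicates 1 and 2 (wide bars). Narrow, pale bars give the median of genes of the same length class with a peak in both replicates. Msi2 stands at 0.907 and 0.828 peaks per kb, above the 0.151 and 0.185 of genes over 200 kb, and Rbfox1 at 0.0485 in both replicates.

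The RBFOX genes held 127 peaks in replicate 1, 121 in replicate 2 and 3 shared peaks. Rbfox1 (chr16:5885355-7411526, 1526 kb), which encodes the founding RBFOX splicing factor of neurons, heart and muscle, had 74 peaks in each replicate and no shared peak. Its density was 0.0485 peaks per kb in both. Of these peaks, 69 of 74 in replicate 1 and 68 of 74 in replicate 2 had the commonest fold and −log10 p of their list. No Rbfox1 peak of replicate 2 overlapped a replicate 1 peak. Its strongest peak (chr16:6283925-6283956) had a fold of 4.81 in replicate 2 and lay 9484 nt from the nearest replicate 1 peak.

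Rbfox2 (chr15:77078990-77307004, 228 kb), the more broadly expressed paralogue, had 53 peaks in replicate 1 and 47 in replicate 2. The density was 0.232 and 0.206 peaks per kb. None of its peaks had the commonest pair of values, and the median fold was 3.28 in replicate 1 and 3.54 in replicate 2. Its first 2 introns held 46 of the 53 and 39 of the 47 peaks. Of the 47 replicate 2 peaks, 6 overlapped a replicate 1 peak (12.8%, Wilson 95% interval 5.99 to 25.2%), and 3 of the 6 were in the deposited shared list. The highest of these (chr15:77299479-77299513, first intron) had folds of 4.29 in replicate 1 and 4.67 in replicate 2. The next (chr15:77144624-77144657, second intron) had folds of 3.29 and 4.61, and the other (chr15:77275315-77275344, first intron) folds of 2.74 and 3.94.

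Strong Rbfox2 peaks also occurred in 1 replicate alone. In replicate 1 the peak at chr15:77273925-77273961 had a fold of 7.43, and the nearest replicate 2 peak had its midpoint 59 nt away without overlapping it. In replicate 2 a peak in the 3′ UTR (chr15:77079081-77079113) had a fold of 5.57, with the nearest replicate 1 peak 3208 nt away. Both were named after their values were seen.

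The MBNL genes held 109 peaks in replicate 1, 77 in replicate 2 and 1 shared peak. Mbnl1 (chr3:60472830-60629750, 157 kb), which encodes the muscleblind protein sequestered by CUG repeats in myotonic dystrophy, had 32 peaks in replicate 1 and 22 in replicate 2. Its density was 0.204 and 0.140 peaks per kb. The shared peak (chr3:60527106-60527135) had folds of 4.79 in replicate 1 and 3.03 in replicate 2. It lay 1635 nt upstream of a 1049-nt cassette exon that holds 5′ UTR sequence (chr3:60528756-60529804). That exon itself held a peak in each replicate, at chr3:60529550-60529587 with a fold of 5.27 in replicate 1 and at chr3:60528999-60529065 with a fold of 4.77 in replicate 2. These 2 peaks did not overlap, and their midpoints were 537 nt apart.

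Mbnl2 (chr14:120275669-120431697, 156 kb), the main muscleblind gene of brain, had 61 peaks in replicate 1 and 34 in replicate 2, or 0.391 and 0.218 per kb. It had no shared peak in the deposited list, and 2 of its replicate 2 peaks overlapped a replicate 1 peak by 9 bp and 7 bp. Its first 2 introns held 53 of the 61 and 28 of the 34 peaks. Its strongest peak, at chr14:120425020-120425097 in the ninth intron, had a fold of 7.24 in replicate 1, and the nearest replicate 2 peak was 501 nt away. A replicate 1 peak (fold 2.27) lay 21 nt downstream of the 54-nt exon shown above, where the nearest replicate 2 peak was 9855 nt away. In Mbnl1 the nearest peaks to the matching exon were 1284 nt away in replicate 1 and 14634 nt away in replicate 2.

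Mbnl3 (chrX:51117269-51206532, 89.3 kb), the muscleblind gene linked to undifferentiated muscle cells, had 16 peaks in replicate 1 and 21 in replicate 2, or 0.179 and 0.235 per kb. Of these, 9 of 16 and 20 of 21 had the commonest pair of values. No Mbnl3 peak overlapped between replicates. The highest fold was 3.89 in replicate 1 and 2.88 in replicate 2.

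The PTBP genes held 88 peaks in replicate 1, 36 in replicate 2 and none in the shared list. Ptbp1 (chr10:79854427-79864771, 10.3 kb), the repressor of neuronal exons in non-neuronal cells, was the shortest of the 10 genes. It had 7 peaks in replicate 1 and 12 in replicate 2, or 0.677 and 1.16 per kb. None had the commonest pair of values. The median fold was 3.35 in replicate 1 and 3.71 in replicate 2. All of these peaks were listed on both strands, as given above.

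Peaks of both replicates lay upstream of the 34-nt exon of Ptbp1, and a replicate 2 peak also downstream of it. The exon is a cassette exon in the comprehensive transcript set and not in the basic set. Within 500 nt of the exon there were 2 peaks in replicate 1 and 3 in replicate 2. Upstream, replicate 1 peaks at chr10:79861646-79861675 (fold 3.47) and chr10:79861700-79861761 (fold 2.60) lay 353 and 283 nt from the exon. A single replicate 2 peak of 163 bp (chr10:79861639-79861801, fold 4.61) covered both. It was not in the deposited shared list, since neither overlap, of 30 bp and 62 bp, reached 50% of its width. Downstream, a replicate 2 peak (chr10:79862065-79862113, fold 3.95) began in the intron just past the exon, with its midpoint 42 nt from the exon end. No replicate 1 peak overlapped it. A retained-intron transcript covers this stretch, which is printed below from within the exon to the end of the peak, with the peak in capitals.
Ptbp1 (chr10:79862017-79862113, plus strand): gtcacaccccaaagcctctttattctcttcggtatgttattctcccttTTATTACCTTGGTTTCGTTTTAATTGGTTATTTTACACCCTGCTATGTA
The stretch has a GC content of 37.1%, and the peak one of 30.6%. Neither holds GAC or TTTTT on the strand printed.

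Ptbp2 (chr3:119718742-119784466, 65.7 kb), the paralogue that replaces PTBP1 in developing neurons, had 36 peaks in replicate 1 and 11 in replicate 2, or 0.548 and 0.167 per kb. Its second intron held 20 and 3 of them. No peak overlapped between replicates. The strongest, at chr3:119735242-119735374 in the eighth intron, had a fold of 6.86 in replicate 1, with the nearest replicate 2 peak 1680 nt away. The nearest peaks to its 34-nt exon were 574 nt away in replicate 1 (fold 2.48) and 12343 nt away in replicate 2, so that no peak of either replicate lay within 500 nt of it.

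Ptbp3 (chr4:59471868-59549364, 77.5 kb), a family member described in blood cells of rat, had 45 peaks in replicate 1 and 13 in replicate 2, or 0.581 and 0.168 per kb. No peak overlapped between replicates. The median fold was 1.87 in replicate 1 and 3.18 in replicate 2. The nearest peaks to the exon that matches those of Ptbp1 and Ptbp2 were 1095 nt away in replicate 1 and 2320 nt away in replicate 2. A different 34-nt exon of Ptbp3, upstream and a cassette exon in the basic set (chr4:59546149-59546182), had a replicate 2 peak 140 nt upstream (fold 3.18), and the nearest replicate 1 peak was 511 nt away. It matched the Ptbp1 exon at 5 of 34 bases.

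**Figure D2:**
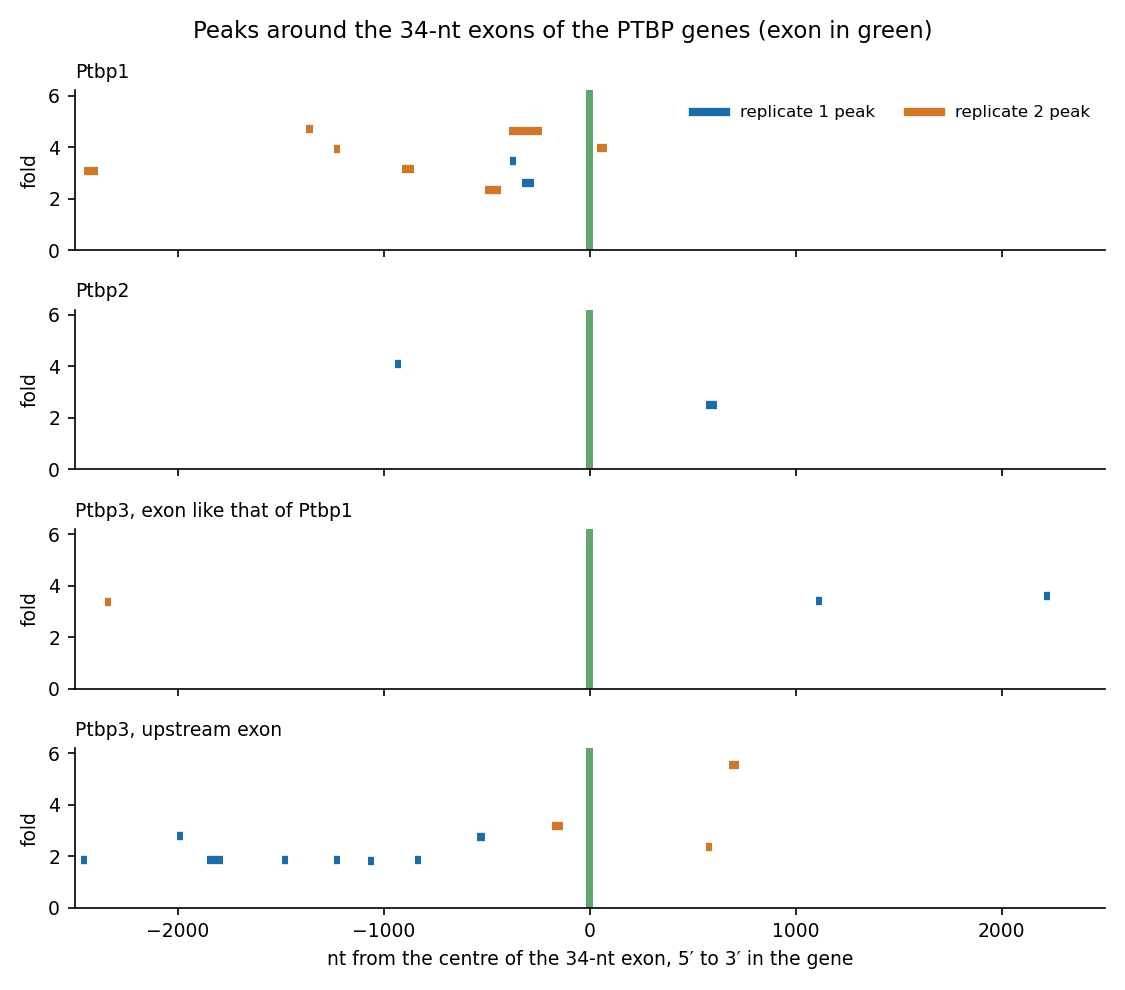
Peaks of WT CLIP replicates 1 and 2 by distance in nt from the centre of each 34-nt exon (horizontal axis, 5′ to 3′) and by fold (vertical axis) in Ptbp1, Ptbp2 and Ptbp3, where each bar spans a peak and green marks the exon. Ptbp1 has 2 peaks of replicate 1 and 3 of replicate 2 within 500 nt of its exon, Ptbp2 has none, and the upstream exon of Ptbp3 has 1, from replicate 2. Over the gene bodies the density was 0.677 and 1.16 peaks per kb in Ptbp1, 0.548 and 0.167 in Ptbp2, and 0.581 and 0.168 in Ptbp3. Every Ptbp1 peak is listed on both strands.

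The Musashi genes held 349 peaks in replicate 1, 339 in replicate 2 and 11 shared peaks, all 11 of them in Msi2. Msi1 (chr5:115429599-115455698, 26.1 kb), a marker of neural progenitors, had 5 peaks in replicate 1 and 25 in replicate 2, or 0.192 and 0.958 per kb. Of these, 4 of 5 and 15 of 25 had the commonest pair of values, and none overlapped between replicates. Ratios were set beside those of 7583 genes with a peak in both replicates and at least 20 peaks over both together. Genes without a peak in 1 replicate, which would have the most extreme ratios, were thus left out beforehand. The ratio of replicate 1 to replicate 2 peaks of Msi1 was 0.2, and 0.0528% of the 7583 genes had a lower one. The same ratio was 3.27 in Ptbp2 and 3.46 in Ptbp3, above 91.0% and 92.0% of those genes, while the middle 90% of the genes spanned 0.5 to 4.2.

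Msi2 (chr11:88339382-88718513, 379 kb), the more widely expressed Musashi gene and a regulator of stem cells, held 344 peaks in replicate 1 and 314 in replicate 2. That was 51.1% and 54.8% of the peaks of the 10 genes. The density was 0.907 and 0.828 peaks per kb. The median fold of its peaks was 1.90 in both replicates, near the 1.93 and 1.92 of all distinct peaks. The commonest pair of values was that of 0 of 344 and 5 of 314 peaks. Most Msi2 peaks were weak all the same: 50 of 344 and 67 of 314 had a −log10 p of 4 or more. Introns 5, 6 and 7 of its longest coding transcript, of 122, 110 and 66.0 kb, held 125, 111 and 54 peaks in replicate 1 and 99, 95 and 68 in replicate 2. Over 10 equal parts of the gene body the count ranged between 22 and 58 in replicate 1 and between 12 and 52 in replicate 2. The fullest was the fifth in replicate 1 (58 peaks, against 21 in replicate 2) and the sixth in replicate 2 (52 peaks, against 39 in replicate 1).

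Of the 314 replicate 2 peaks of Msi2, 18 overlapped a replicate 1 peak (5.73%, Wilson 95% interval 3.66 to 8.88%), and 11 of the 18 were in the deposited shared list. Those 11 lay in introns 5 (2 peaks), 6 (7 peaks) and 7 (2 peaks). In the sixth intron 2 of them stood next to each other, 30343 and 30189 nt from the nearest splice site. The first (chr11:88559634-88559789, 156 bp) had a fold of 11.9 in replicate 1 and of 4.39 in replicate 2, with a −log10 p of 23 and 6.41. It was the highest shared peak of the 10 genes. The second (chr11:88559819-88559912, 94 bp) had folds of 5.61 and 4.38. The next, in the seventh intron (chr11:88463204-88463237), had folds of 5.66 and 3.97. The other 8 shared Msi2 peaks had folds between 1.82 and 2.74 in replicate 1 and between 1.82 and 3.29 in replicate 2. Those among the 10 highest shared peaks of the 10 genes began at 88604991 (folds 1.95 and 1.90), at 88502852 (1.94 and 1.88) and at 88508656 (1.87 and 2.78). Over all genes, 183 genes held more shared peaks than Msi2, and 158 of the 1033 genes over 200 kb had more of them per kb.

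A pair of overlapping Msi2 peaks lay on a retained-intron transcript and could be read as sequence. The bases in both are in capitals, and the pair overlapped by only 2 bp, with folds of 1.90 in replicate 1 and 3.61 in replicate 2.
Msi2 replicate 1 (chr11:88478541-88478570, minus strand): aagagaacttgttgctcagagaccgcagTT
Msi2 replicate 2 (chr11:88478513-88478542, minus strand): TTtggttcccggcagtcacttcaaatcgct

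**Figure D3:**
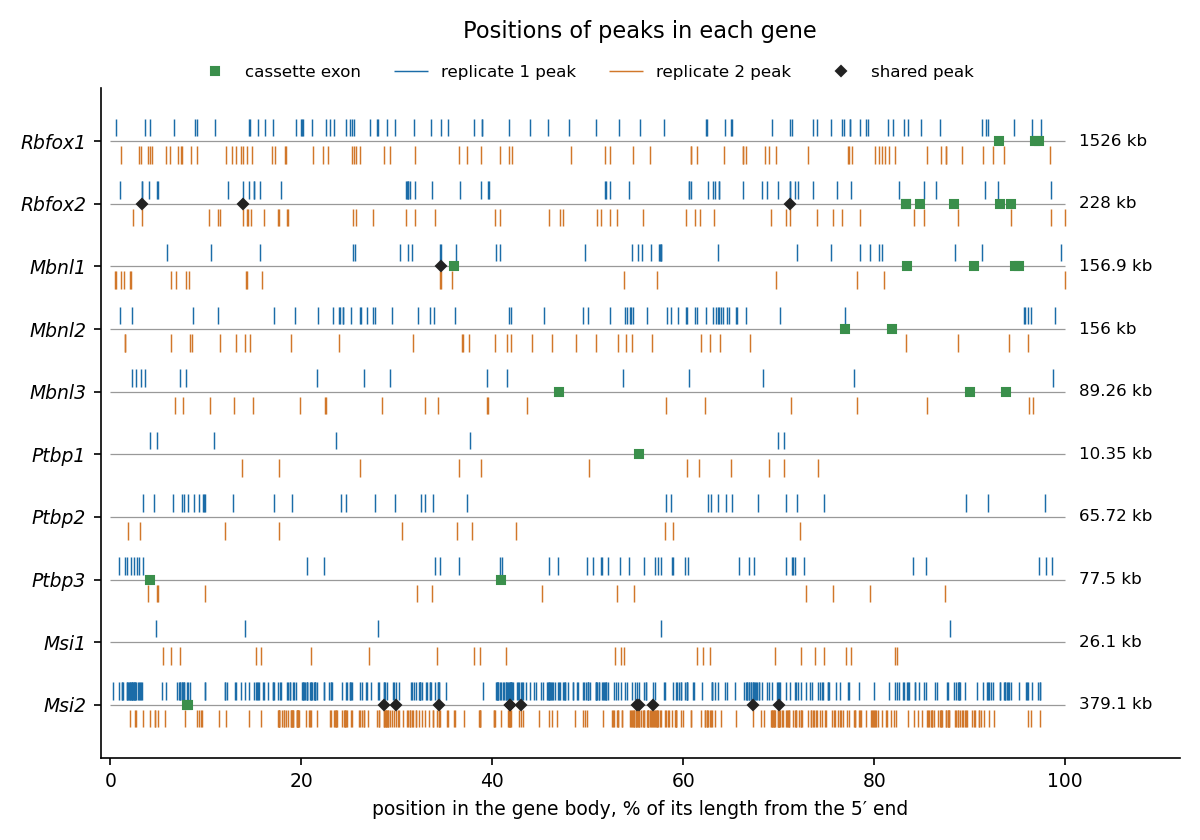
Position of every peak along the body of each gene, in % of its length from the 5′ end (horizontal axis), with replicate 1 above and replicate 2 below each line, shared peaks as diamonds and cassette exons of the basic set as squares. The 11 shared Msi2 peaks lie in the middle of the gene, away from its 2 cassette exons, and Rbfox1 has 74 scattered peaks in each replicate and no diamond.

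Shared peaks were found in 3 of the 10 genes (Rbfox2, Mbnl1 and Msi2), and 38.7% of the 15995 genes with peaks in both replicates held at least 1. A count over 10 genes is too small to tell these shares apart. By length class, 2 of 3 members over 200 kb, 1 of 5 members of 50 to 200 kb and 0 of 2 shorter members had a shared peak, against 70.9%, 55.8% and 29.3% of all genes in those classes. No member had a shared peak with a fold of 10 or more in both replicates, and 1.15% of all genes had such a peak. At a fold of 5 the count of members was also 0. The top Msi2 peak passed a fold of 10 in replicate 1 alone.

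**Figure D4:**
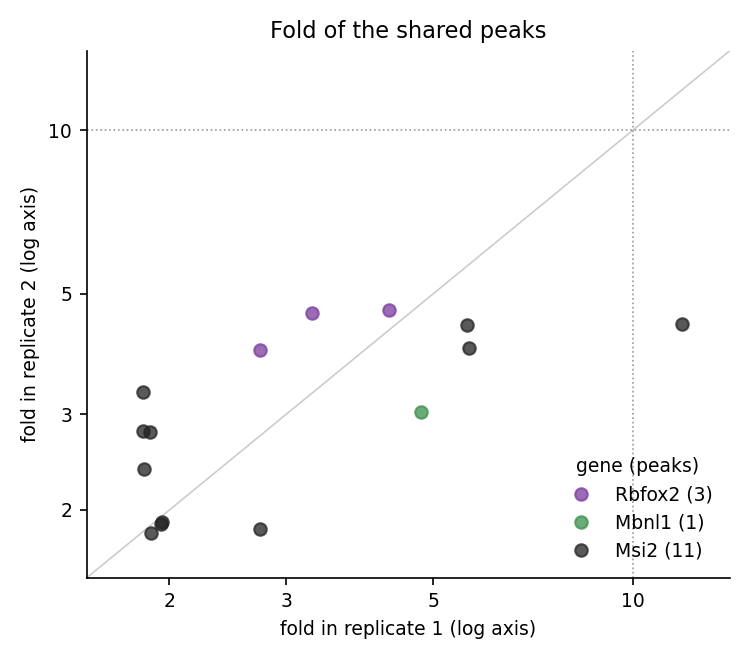
Fold in replicate 1 (horizontal, log axis) and in replicate 2 (vertical, log axis) of the 15 shared peaks, with a diagonal where the listed folds are equal and dotted lines at a fold of 10. No point is past 10 in both, and the Msi2 point at 11.9 in replicate 1 stands at 4.39 in replicate 2.

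Sharing was also counted over all replicate 2 peaks. Of the 573 replicate 2 peaks of the 10 genes, 15 were in the deposited shared list (2.62%, Wilson 95% interval 1.59 to 4.27%), against 4.76% of all distinct replicate 2 peaks. With any overlap of 1 bp or more, 29 of 573 overlapped a replicate 1 peak (5.06%, Wilson 95% interval 3.55 to 7.17%), against 7.87% of all replicate 2 peaks in genes. These intervals cover counting error over peaks only, and peaks of a gene share their transcript. At least 1 overlapping peak was present in 5 members (Rbfox2, Mbnl1, Mbnl2, Ptbp1 and Msi2), against 48.0% of all genes. The overlap was largest among the strongest peaks: where the −log10 p of the replicate 2 peak was at least 6, 5 of 26 overlapped in the 10 genes (19.2%, interval 8.51 to 37.9%), against 35.0% in all genes. At a −log10 p of 4 to 6 it was 9 of 103 (8.74%, interval 4.7 to 15.8%), against 11.95%. At 3 to 4 it was 3 of 199 (1.51%, interval 0.514 to 4.34%), against 5.23%. At 2 to 3, the weakest class, it was 12 of 245 (4.90%, interval 2.8 to 8.4%), against 7.51%. The share thus did not rise at each step of −log10 p, in the 10 genes or in all genes. Without Msi2 the share over all classes was 11 of 259 (4.25%, interval 2.39 to 7.44%).

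**Figure D5:**
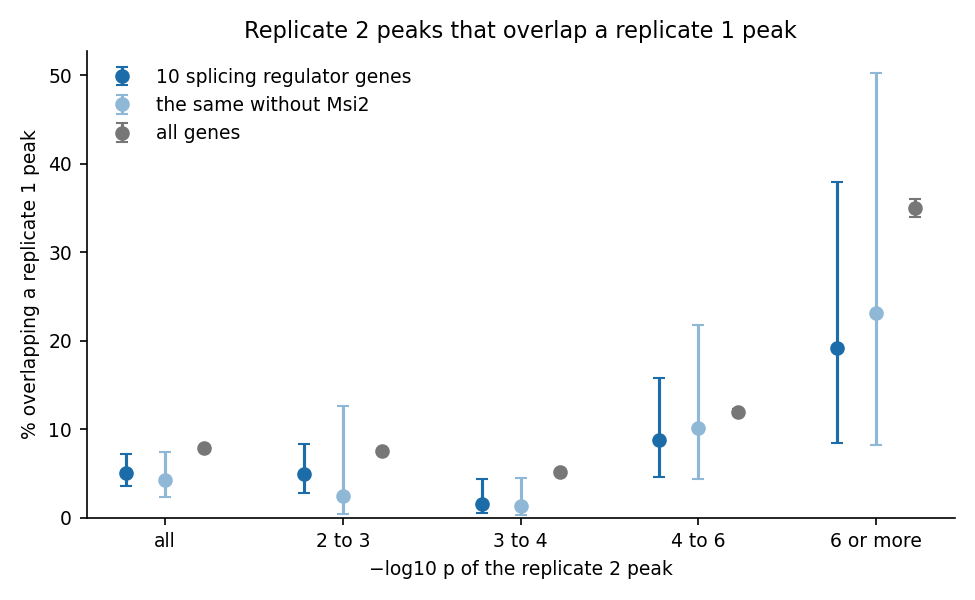
Share of replicate 2 peaks that overlap a replicate 1 peak by 1 bp or more (vertical axis, %), by the −log10 p of the replicate 2 peak, in the 10 genes, in the same genes without Msi2, and in all genes. Points are shares and bars Wilson 95% intervals over peaks, and in the class of 6 or more the 10 genes stand at 19.2% and all genes at 35.0%.

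Few peaks lay near annotated cassette exons. A cassette exon was defined as an internal exon lying wholly inside an intron of another transcript of the gene. The basic transcript set held 23 such exons in 8 of the 10 genes, counting overlapping versions as 1. A peak lay within 500 nt of 8 of the 23 exons in either replicate, of 5 in replicate 1, of 4 in replicate 2 and of 1 in both, the 1049-nt exon of Mbnl1. In all, 10 of 1169 peaks of both replicates were that close (0.855%, Wilson 95% interval 0.465 to 1.57%), while 0.948% of the gene bodies is within the window. Over all genes with a cassette exon it was 3.19% of peaks, with 2.20% of the gene bodies within the window. Without Msi2 it was 8 of 511 peaks (1.57%, interval 0.795 to 3.06%), with 1.04% of the bodies in the window. That share pools the bodies by length, and Rbfox1, the longest and sparsest gene, had 0.21% of its body in the window. With each gene's own peaks spread evenly, the number was 1.65 in Ptbp3 (3 seen), 2.11 in Mbnl1 (2 seen) and 2.36 in Rbfox2 (1 seen). It was 1.27 in Mbnl2 and 1.98 in Ptbp1 (1 seen in each), and 0.30 in Rbfox1 and 1.40 in Mbnl3 (0 seen in each).

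The 10 peaks were spread over 6 of the 8 genes, with none in Rbfox1 or Mbnl3. Beside those of Mbnl1, Mbnl2 and Ptbp3 already given, a replicate 2 peak of Rbfox2 (fold 3.72) lay 148 nt upstream of the 43-nt exon, the counterpart of which in Rbfox1 was 3703 nt from the nearest peak of replicate 1 and 17584 nt from that of replicate 2. Replicate 1 peaks of Msi2 lay 160 nt upstream of a 97-nt exon (fold 2.74) and 34 nt upstream of a 72-nt exon (fold 3.47). A replicate 2 peak of Ptbp1 (fold 4.69) lay 476 nt downstream of a 78-nt exon. In replicate 1, 2 weak peaks of Ptbp3 (fold 1.82 each) lay on or 10 nt beyond a 170-nt exon. None of the 15 shared peaks was within 500 nt of a cassette exon, the nearest being the Mbnl1 peak at 1635 nt. With the cassette exons of all annotated transcripts, 45 in the 10 genes, 26 of 1246 peaks were within 500 nt (2.09%, interval 1.43 to 3.04%), with 1.81% of the bodies in the window. Over all genes it was 4.92% of peaks, with 3.39% of the bodies. Msi2 held 658 of the 1246 peaks and 2 of the 26. Without it, 24 of 588 peaks were that close (4.08%, interval 2.76 to 6.0%), with 2.04% of the bodies in the window. With the basic set, a window of 1000 nt and no Msi2, it was 19 of 511 peaks (3.72%, interval 2.39 to 5.73%), with 1.93% of the bodies, against 5.32% of peaks and 3.84% of the bodies over all genes. Of the 26, 10 were in Ptbp1, of which 52.7% of the body lies in such a window. With each gene's own peaks spread evenly, the number was 10.0 in Ptbp1, where 10 were seen. It was 4.4 in Mbnl1 (5 seen), 3.32 in Ptbp3 (5 seen), 3.62 in Mbnl2 (2 seen) and 3.29 in Rbfox2 (1 seen). It was 1.94 in Ptbp2 (1 seen) and 2.6 in Msi2 (2 seen). It was 1.40 in Mbnl3, 1.2 in Msi1 and 0.41 in Rbfox1 (0 seen in each). The pooled shares of the bodies weigh genes by length, and no difference was tested.

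Nearly all peaks were intronic. Introns held 97.8% of peaks in the 10 genes in replicate 1 and 97.6% in replicate 2, against 90.3% and 91.1% over all genes, and all 15 shared peaks were intronic. Exons make up 1.92% of the bodies of the 10 genes, against 5.94% over all genes. Exonic density was 0.289 and 0.269 peaks per kb of exon in the 10 genes, and intronic density 0.247 and 0.210 per kb of intron. Over all genes the exonic density was 0.593 and 0.487 and the intronic density 0.364 and 0.327. Among the exonic peaks of the 10 genes, 8 in replicate 1 and 6 in replicate 2 were in 3′ UTRs, and 5 and 5 in coding sequence. Rbfox1 had no exonic peak in either replicate. A replicate 2 peak of Ptbp3 lay inside a 147-nt coding cassette exon of the comprehensive set (fold 3.97), and another inside an 82-nt one (fold 3.45). No peak lay in the 11 promoter windows that RefSeq gives for 7 of the 10 genes. No share over all genes is given for such windows, so nothing is read from this count.

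RBM45 is known to favour GAC-containing RNA, and peaks whose sequence was covered by a transcript were searched for GAC and TTTTT in their central 30 nt, on the strand of the gene. In the 10 genes, GAC was present in 8 of 27 readable peaks of replicate 1 (29.6%, Wilson 95% interval 15.9 to 48.5%) and in 5 of 25 of replicate 2 (20%, interval 8.86 to 39.1%), against 31.2% of readable peaks of all genes in both replicates. TTTTT was present in 4 of 27 (14.8%, interval 5.92 to 32.5%) and 2 of 25 (8%, interval 2.22 to 25.0%), against 6.34% and 5.91% over all genes. Readable peaks are those on exons or retained introns, so that none of the 15 shared peaks entered these counts.

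Other splicing regulators and known partners were counted by the same rules. Of 26 other regulators, all with peaks in both replicates, 8 had a shared peak and 0 a shared peak with a fold of 10 or more in both. Over the 15995 genes with peaks in both replicates, these shares were 38.7% and 1.15%. Their median density was 0.153 and 0.136 peaks per kb. Celf2, a regulator of neuronal splicing, had 366 and 157 peaks and 17 shared peaks over 970 kb. Khdrbs3, a STAR family splicing factor, had 123 and 144 peaks and 6 shared peaks over 173 kb. Celf1, Celf4, Celf6, Qk, Rbm4 and Srrm3 had 1 shared peak each. Rbfox3, the remaining RBFOX gene and the source of the NeuN antigen, had 13 and 10 peaks and none shared. Among partners of RBFOX in the large assembly of splicing regulators, Hnrnpul2 had 3 and 7 peaks and 1 shared peak. The PTBP corepressors Raver1 (9 and 9 peaks) and Raver2 (8 and 15 peaks) had no shared peak. Among the markers of the labelled cell type, 8 of 10 neuronal genes had peaks in both replicates and 4 a shared peak, 5 shared peaks in all. Of other cell types, 5 of 7 astrocyte, 5 of 7 oligodendrocyte, 5 of 6 microglial and 5 of 7 endothelial markers had peaks in both replicates, and 1 gene of each list had a shared peak. The endothelial list held 12 shared peaks, all in Flt1, a VEGF receptor gene. Of 55450 annotated genes, 15995 had peaks in both replicates, and 38.7% of those 15995 held a shared peak. Peaks do not measure expression, so the identity of the cells was not tested.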

How the data were processed

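MACS2 peaks were called separately on WT CLIP replicates 1 and 2, with a p threshold of 0.005, per the peak names in the deposited lists. The submitters' processing notes also name mm10, bedtools 2.25.0, deepTools 3.2.1, HOMER 4.11.1, MACS2 2.1.1.20160309 and Novoalign 3.09.00. No source used here says whether input was the control. The authors deposited for each peak a score, a fold (a ratio over background) and a −log10 p-value. The deposited shared list holds pairs in which at least 50% of the replicate 2 peak is covered. The deposited count table and its summary have 16 library columns with names that fit none of the sample labels. Neither these nor the score were used.

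Here, repeated lines were removed, leaving 387749 of 654978 and 344700 of 581790 peaks. Peaks were placed by midpoint on the same strand of GENCODE M21 basic genes. No test was run, since the lists cover 1 condition, and shares carry Wilson 95% intervals. Placement and overlap were tested on simulated data (200 of 200 genes recovered). The tools were bedtools 2.31.1 and Python 3.11.15 with matplotlib 3.10.9, scipy 1.17.1, pandas 2.3.3 and numpy 2.4.6. The members and lists were chosen with earlier results of these data known. By rule, the text names the 10 shared peaks with the highest lower −log10 p, each member's highest shared peak, any shared peak in an exon or near a cassette exon, and the 4 genes of each other list with the most shared peaks, with ties. Other single peaks were named after their values were seen. Alternatives varied the overlap, window, transcript set, thresholds, gene span and strand, and left out each replicate, the commonest pair of values or Msi2. A gene of the list of RBFOX partners is not reported here.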

Additional observations from a re-analysis of the deposited data

How the results depend on the processing

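The mean number of peaks per replicate in the 10 genes was 623, ranged from 573 to 673 when either replicate was left out, and was 130.5 at a −log10 p of 4 or more. At that threshold the median density was 0.0820 peaks per kb, against 0.331. With an overlap of 1 bp or more, 5 members shared a peak between replicates, against 3. The share of replicate 2 peaks overlapping a replicate 1 peak was 1.92% with a required cover of 50% on each side, against 5.06%. The share of peaks near a cassette exon was 0.855%, and ranged from 0.745 to 0.949% when either replicate was left out. It was 1.88% with a window of 1000 nt, 2.09% with all transcripts, 2.02% at a −log10 p of 4 or more and 0 with shared peaks only. Per gene, densities differed by over 1.5 times in 13 of 30 values, lower in each: in all 10 genes at a −log10 p of 4 or more, and in Rbfox1, Mbnl3 and Msi1 without the commonest pair of values. Leaving out Msi2 gave a cassette share of 1.57%, and a −log10 p of 4 or more in both replicates left 2 members with a shared peak. The other alternatives stayed within 1.5 times the count or density, or within the Wilson interval of the share. Those that leave out a gene or the commonest pair were chosen after seeing the data. Leaving out a replicate gives no value for sharing. No paired analysis was possible because no test was made and the lists cover 1 group. With 2 replicates of unknown depth, a peak missing from 1 of them may be absent or below detection.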
